A study of Mus musculus with 8 samples.

Results

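Pecam1, Cd36, Mcam and Cd300lg encode proteins of the endothelial surface, and each was measured in the same cells as RNA and as an antibody tag named CD31, CD36, CD146 or CD300LG. These 4 genes, of the 55487 in the count table, were chosen by name with their rows among the 27 tags, and they were read in endothelial, mural, fibroblast and epithelial cells of the mouse thymus. In every contrast between cell classes, all 4 genes passed the filter on low counts.

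The cells were thymic stroma of C57BL/6 mice, one pool of several thymi at 1 week of age and one at 16 weeks. Both pools carried no treatment or targeted allele, were depleted of CD45-bearing cells and were sorted as CD45- Ter119- cells of an EpCAM1+ and an EpCAM1- gate, which were mixed. Each pool was loaded as 2 wells, called replicate 1 and replicate 2 here, so the spread between wells is technical and age cannot be told apart from pool. Thymi within a pool cannot be separated, and the sort fixed the share of stroma that was not epithelial, so class sizes are not described as frequencies in the organ.

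PECAM1 (CD31) is an adhesion molecule of endothelial junctions, where it binds itself on the neighbouring cell and takes part in the passage of leukocytes. CD36 is a scavenger receptor that takes up long-chain fatty acids and binds thrombospondins, and in many tissues it is a trait of capillary endothelium. MCAM (CD146) is an immunoglobulin-family adhesion receptor of endothelium, pericytes and smooth muscle that binds laminins. CD300LG (nepmucin) is a CD300-family protein of capillary and high endothelial venule endothelium that can serve as an L-selectin ligand. In the thymus, the vessels that carry these proteins are the route by which progenitors enter and mature T cells leave.

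Each tag was read out by a barcode of 15 bases on the antibody, and these barcodes are shown because they alone carry the protein readout. Capitals mark the bases at which a barcode differed from its most similar barcode among the other 26 tags.
CD31: GCTGTAgtatcatGt
CD36: ttTgCcgCtACGACa
CD146: cCTtGGAtaAcatCA
CD300LG: CGGTcCgtAtcattt
CD31 and CD146 differed from the CD300LG barcode at 7 and 8 positions, CD36 from MadCAM1 at 8, and CD300LG from CD80 at 6. For CD31 and CD146, 2 barcodes shared the smallest distance, and their capitals refer to CD300LG. The antibody to CD146 was of a clone raised against the human protein, and the sources used here differ on whether a barcoded antibody to CD146 was in the panel. The deposited tag tables held a CD146 row, and its values are given as that row's counts. On the mouse genome build GRCm38 (annotation GENCODE M21), Pecam1 (ENSMUSG00000020717) lies at chr11:106654217-106750628 on the minus strand and Cd300lg (ENSMUSG00000017309) at chr11:102041509-102055620 on the plus strand. Cd36 (ENSMUSG00000002944) lies at chr5:17781690-17888801 on the minus strand and Mcam (ENSMUSG00000032135) at chr9:44134469-44142727 on the plus strand.

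Of 9953 cells, 253 predicted doublets were left out, and 393 cells were endothelial, 339 mural, 2152 fibroblast and 6543 epithelial by markers that did not include the 4 genes. Libraries held between 21281389 and 45480790 RNA molecules (UMIs). The summed level of 12 other endothelial markers was 7161 to 8920 UMIs per 1000000 UMIs of the class (CPM) in endothelial cells, 359 to 584 in mural cells, 230 to 379 in fibroblasts and 48.9 to 102 in epithelial cells. Epithelial markers summed to 1133 to 2474 CPM in endothelial cells against 8057 to 20135 in epithelial cells, and their part in the results was not tested. The libraries shared 15 cell barcodes. Tag depth differed between classes: the median cell carried 252 to 431 tag counts in endothelial libraries and 2851 to 5784 in epithelial ones, so tags are given as raw counts and after scaling to the total tag count of the cell.

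Pecam1 RNA separated endothelial cells from every other class. Its level in endothelial cells was 1127 and 1129 CPM in the 1-week wells and 1523 and 1526 CPM in the 16-week wells, a mean of 1326 ± 229 CPM (SD, n = 4 libraries of 2 pools). A UMI was present in 96.9% to 98.9% of endothelial cells, against 10.4% to 15.8% of epithelial cells, at similar median depths of 6074 to 7492 UMIs and 5532 to 7394 UMIs per cell. The other classes overlapped one another, with 5.06 to 9.29 CPM in fibroblasts, 7.90 to 14.9 CPM in epithelial cells and 0 to 23.7 CPM in mural cells. The mural value of 0 was that of 16-week replicate 1, where 28 cells were found; 3 UMIs there would have been 11 CPM, and the exact interval reached 13.5 CPM.

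Cd36 RNA was likewise highest in endothelial cells. Endothelial cells held 589 and 723 CPM at 1 week and 1026 and 1157 CPM at 16 weeks, a mean of 874 ± 263 CPM (SD, n = 4 libraries). Mural cells held 31.4, 11.8, 3.66 and 15.1 CPM and were second in 3 libraries. The value of 3.66 CPM, in 16-week replicate 1, was 1 UMI, under the 11 CPM that 3 UMIs would have been there and below the 4.90 CPM of its epithelial cells. The ranges of fibroblasts (3.52 to 4.98 CPM), epithelial cells (3.38 to 6.55 CPM) and mural cells overlapped. The lowest endothelial library was therefore well above the highest library of any other class.

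Mcam RNA had another order, with mural cells first. Mural libraries held 265, 336, 476 and 328 CPM and endothelial libraries 133, 181, 78.8 and 73.8 CPM, in the order 1-week replicates 1 and 2 and 16-week replicates 1 and 2. In each of the 4 libraries the mural level was above the endothelial one, and the ranges did not overlap. Fibroblasts (15.4, 11.5, 5.97 and 5.59 CPM) and epithelial cells (5.28, 6.0, 9.13 and 10.7 CPM) were lower, with ranges that overlapped. A Mcam UMI was found in 72.9% to 92.9% of mural cells, 32.0% to 70.3% of endothelial cells and 7.26% to 9.06% of epithelial cells, which had lower median depths than mural cells in each library.

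Cd300lg RNA was highest in endothelial cells and second in the fibroblasts of the older mice. Endothelial libraries held 307 and 314 CPM at 1 week and 476 and 551 CPM at 16 weeks, a mean of 412 ± 121 CPM (SD, n = 4 libraries). Fibroblasts held 6.07 and 10.7 CPM at 1 week but 59.9 and 68.1 CPM at 16 weeks. The summed endothelial markers in fibroblasts were also higher at 16 weeks, at 362 and 379 CPM against 230 and 245 CPM, and their part in this difference was not tested. Mural cells held 0 to 7.53 CPM and epithelial cells 1.73 to 5.95 CPM, and these classes overlapped.

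**Figure D1:**
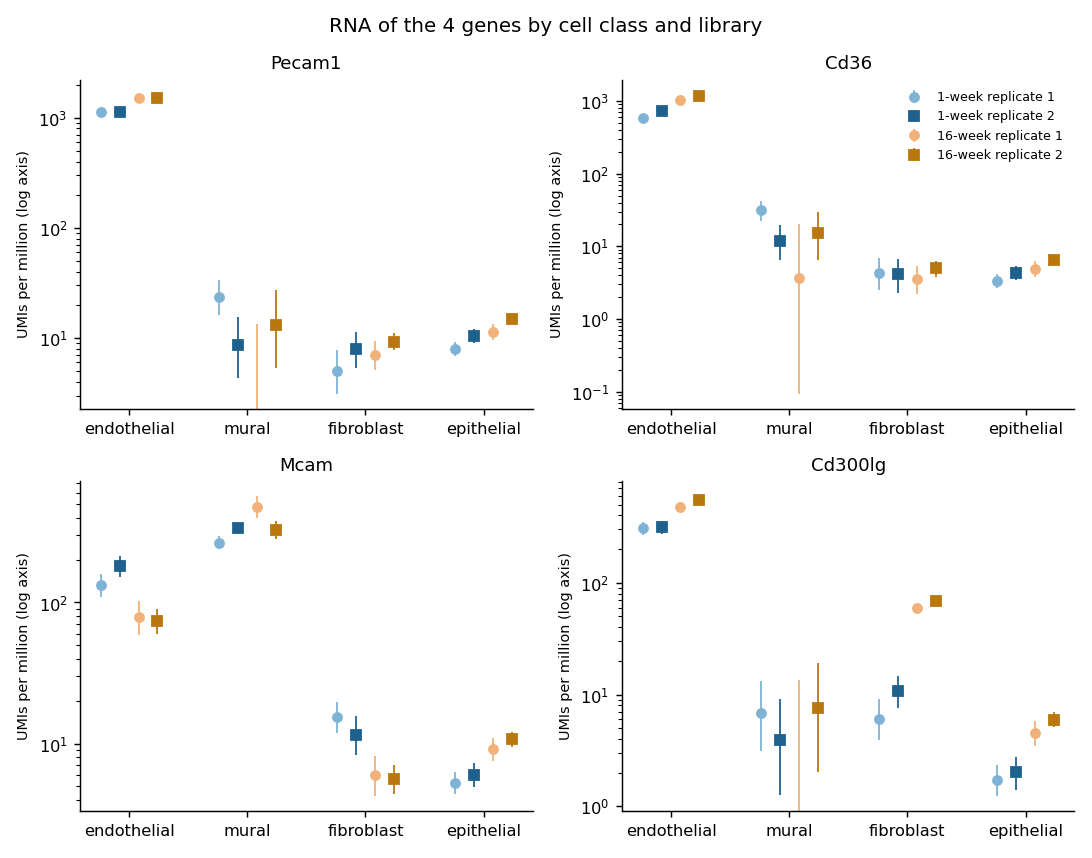
RNA level of each gene (vertical log axis, CPM) in 4 cell classes, with 1 point per library (blue, 1 week; orange, 16 weeks; circles, replicate 1; squares, replicate 2) and bars for the exact 95% counting interval. Pecam1, Cd36 and Cd300lg were highest in endothelial cells and Mcam in mural cells; the mural library with 0 UMIs of Pecam1 and Cd300lg shows only its interval.

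The contrasts between classes were tested on 8 sums of counts, one for each pool and class, with the pool as a block. Against epithelial cells, all 4 genes were higher in endothelial cells, where 11.5% of the 15930 genes tested passed in that direction. The log2 fold changes were 6.93 ± 0.35 (SE) for Pecam1, 7.55 ± 0.42 for Cd36, 7.07 ± 0.61 for Cd300lg and 3.86 ± 0.51 for Mcam, with adjusted p-values of 1.49e-05, 2.43e-05, 0.000171 and 0.00131 (edgeR quasi-likelihood test, Benjamini-Hochberg adjustment over all genes). Against fibroblasts, all 4 were again higher, beside 7.05% of all genes. The changes were 7.36 ± 0.36 for Pecam1 (adjusted p = 1.84e-05), 7.55 ± 0.42 for Cd36 (adjusted p = 3.43e-05), 3.83 ± 0.53 for Cd300lg (adjusted p = 0.00194) and 3.51 ± 0.51 for Mcam (adjusted p = 0.00237).

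Against mural cells, 3 of the 4 genes were higher in endothelial cells, beside 5.91% of all genes. These were Pecam1 (log2 6.50 ± 0.36, adjusted p = 6.32e-05), Cd36 (5.51 ± 0.40, adjusted p = 0.000149) and Cd300lg (6.02 ± 0.65, adjusted p = 0.000839). Without 1-week replicate 1 they were 7.19, 6.23 and 6.52, and each still passed. Mcam had a log2 difference of -1.66 ± 0.47, which did not pass the threshold of 0.05 (adjusted p = 0.0571). Where each library was summed on its own and entered as a replicate block, the difference was -1.63 and passed (adjusted p = 0.00256 over the 13700 genes tested there); that fit treats wells of one pool as separate samples.

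Mural cells were set against fibroblasts as the other mesenchymal class. Mcam (log2 5.17 ± 0.54, adjusted p = 0.00134) and Cd36 (2.04 ± 0.40, adjusted p = 0.0187) were higher in mural cells, 2 of the 4 genes beside 3.90% of all genes. The Cd36 level behind that call was low, with 1 to 41 UMIs per mural library. Pecam1 (0.86 ± 0.34, adjusted p = 0.198) and Cd300lg (-2.19 ± 0.66, adjusted p = 0.088) did not pass, though for Cd300lg the fit per library with its block gave -2.22 and an adjusted p of 0.0115. Without 1-week replicate 1 the Pecam1 difference was 0.07 and that of Cd36 1.45 (adjusted p = 0.0302).

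**Figure D2:**
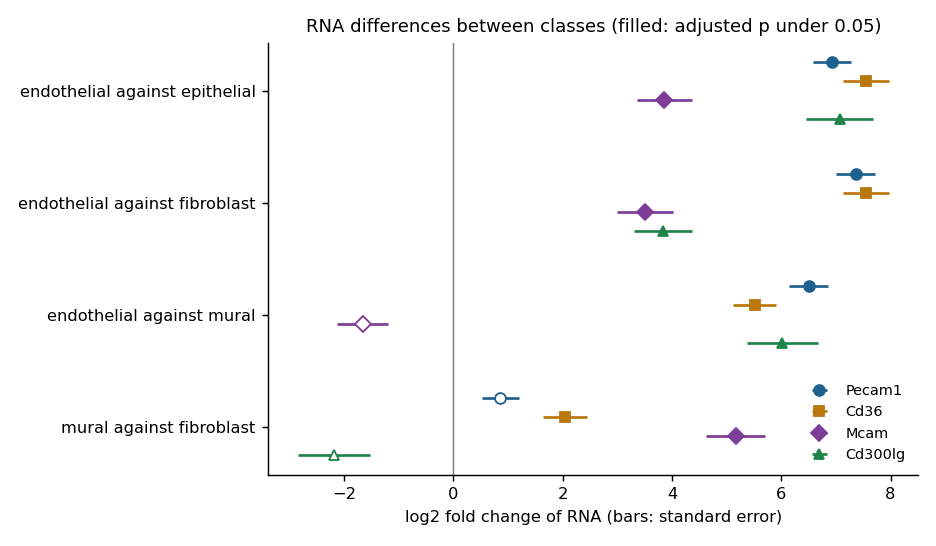
Log2 fold change of RNA (horizontal axis; bars, standard error) for the 4 genes in each contrast of cell classes, from the fit on sums per pool and class. Filled symbols passed an adjusted p of 0.05; the Mcam point of endothelial against mural cells, at -1.66, and the Pecam1 and Cd300lg points of mural cells against fibroblasts are open.

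The CD31 tag showed the largest separation of the 4 tags. Endothelial cells carried a mean of 267 and 179 counts per cell at 1 week and 123 and 81.7 at 16 weeks, with medians of 102, 114, 37 and 26 counts. Means in the other classes were 1.09 to 7.25 counts in mural cells, 0.673 to 2.93 in fibroblasts and 1.27 to 5.33 in epithelial cells. Within each library the endothelial mean was 33.5 to 64.3 times the epithelial one, 42.0 to 396 times that of fibroblasts and 17.0 to 163 times that of mural cells. Single cells carried part of the means of the other classes. In mural cells, 1 cell held 148 of 203 counts in 16-week replicate 1, where the ratio of 17.0 became 60.3 without it, and 176 of 349 in 1-week replicate 1, where 96.2 became 193. In fibroblasts of 16-week replicate 1, 1 cell held 616 of 1561 counts, and the ratio of 42.0 became 69.2 without it. These ratios were added after seeing the data. The epithelial mean rested on few cells: 100 epithelial cells with at least 20 counts held 43.0% of the CD31 counts of that class. A Pecam1 UMI was found in 39.0% of those cells against 11% of the other epithelial cells, and they were deeper, with a median of 24018 UMIs against 6067. The part of depth in those counts was not tested.

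The CD36 tag was sparse. Endothelial cells carried 1.74 and 2.12 counts per cell at 1 week and 1.62 and 0.769 at 16 weeks, and all other classes 0.112 to 0.409. Every endothelial library was above every library of the other classes. At least 1 count was seen on 54.8% and 51.6% of endothelial cells at 1 week and on 28.7% and 29.0% at 16 weeks, against 16.7% to 20.8% of epithelial cells with their larger tag totals and 16.7% to 28.6% of mural cells, the highest mural value being that of 16-week replicate 1, where it matched the endothelial share. Counts of separate antibodies cannot be compared with each other.

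The CD300LG tag was likewise sparse and highest in endothelial cells, with 0.699 and 0.672 counts per cell at 1 week and 1.78 and 1.05 at 16 weeks. Epithelial cells carried 0.355 to 0.499 counts, fibroblasts 0.217 to 0.398 and mural cells 0.143 to 0.398. On raw counts the fibroblasts of 16 weeks, at 0.398 and 0.333 counts, lay within the range of fibroblasts, mural and epithelial cells in which the gene was low. Per 1000 tag counts they held 0.526 and 0.650, against 0.439 and 0.256 in fibroblasts of 1 week. On that scale mural cells held 0.148 to 0.556 and epithelial cells 0.0652 to 0.0763.

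The CD146 tag did not follow Mcam RNA. Mural cells, where the RNA was highest, carried 0.198, 0.212, 0.107 and 0.239 counts per cell, and epithelial cells, where it was low, carried 0.368, 0.422, 0.348 and 0.257. In each library the mural mean was below the epithelial one, at 0.308 to 0.930 times its value. Endothelial cells carried 0.288, 0.469, 0.471 and 0.213 counts and fibroblasts 0.128 to 0.212. Scaling to the total tag count turned the order, since the share of CD146 among all tag counts was 2.03 to 5.36 times higher in mural than in epithelial cells. The direction between those classes therefore depended on the scaling.

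**Figure D3:**
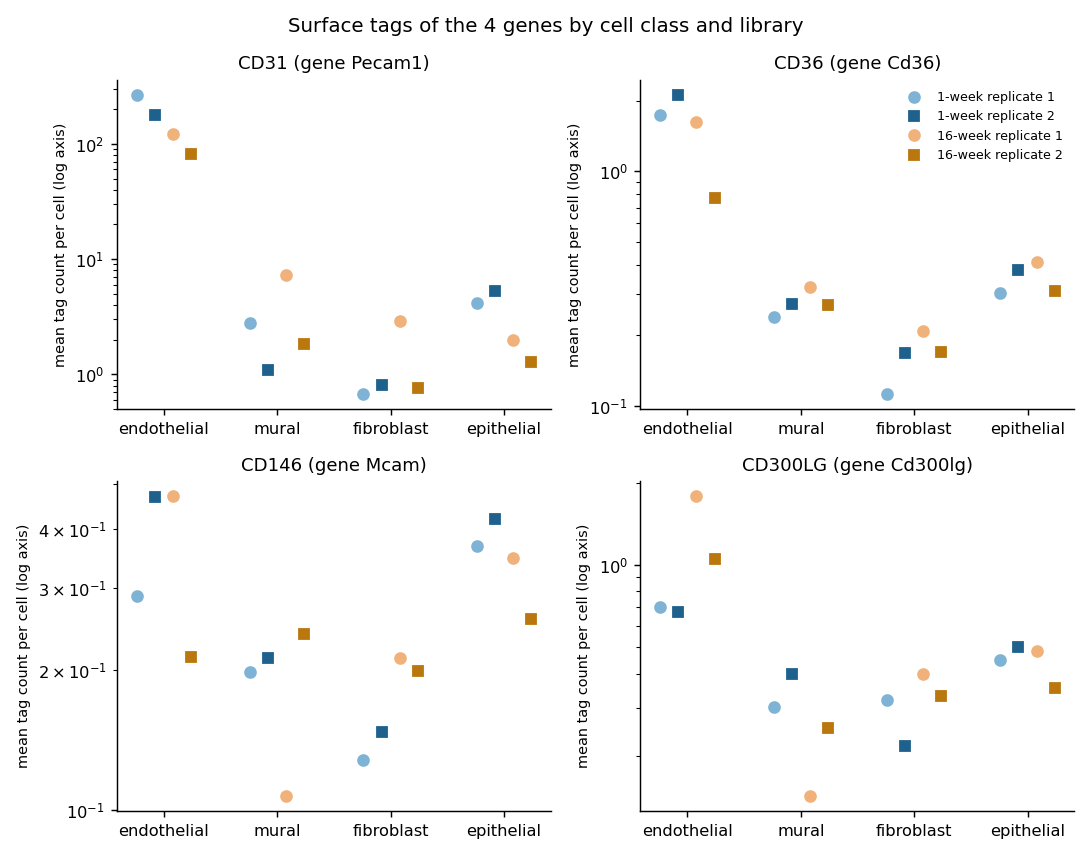
Mean tag count per cell (vertical log axis, not scaled to the tag total) of the 4 antibodies in 4 cell classes, with 1 point per library (blue, 1 week; orange, 16 weeks; circles, replicate 1; squares, replicate 2). CD31, CD36 and CD300LG were highest in endothelial cells, whereas CD146 in mural cells (0.107 to 0.239 counts) was no higher than in epithelial cells (0.257 to 0.422 counts).

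On the scale of log2(count scaled to the mean tag total + 1), endothelial cells were above epithelial cells for all 4 tags in 4 of 4 libraries. The differences were 7.99 ± 0.57 for CD31 (SD, n = 4 libraries), 1.55 ± 0.63 for CD36, 1.14 ± 0.37 for CD300LG and 0.48 ± 0.11 for CD146. The size of all 4 differences depended on the scaling: on raw counts they were 4.68 ± 0.65 for CD31, 0.52 ± 0.27 for CD36 and 0.25 ± 0.19 for CD300LG, each positive in 4 of 4 libraries, and 0.01 ± 0.07 for CD146, positive in 2 of 4 (exact p = 0.75). On the scale of the total tag count, each of the 4 had an exact two-sided sign-flip p of 0.13, the smallest that 4 libraries allow, so none could pass 0.05, and the test and the SDs count wells of one pool as separate samples. Against fibroblasts the differences were 7.28 ± 0.64, 1.26 ± 0.64, 0.63 ± 0.34 and 0.26 ± 0.08 in the same order of tags, and against mural cells 6.81 ± 0.80, 1.14 ± 0.67, 0.83 ± 0.57 and 0.28 ± 0.17, all positive in 4 of 4 libraries (exact p = 0.13 each). On a centred log ratio scale the difference from fibroblasts became -0.09 for CD146, and 0.11 for CD300LG with 2 of 4 libraries positive. On raw counts CD146 was above mural cells in 3 of 4 libraries. Between mural cells and fibroblasts, CD146 differed by -0.03 ± 0.15 and was positive in 1 of 4 libraries (exact p = 0.625), where Mcam RNA differed by 5.17 on the log2 scale.

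Within endothelial cells, RNA and tag of single cells were only loosely related. Spearman correlations of the gene's share of UMIs with the tag's share of tag counts, over the 64 to 169 endothelial cells of a library, were 0.142 to 0.266 for CD31, 0.218 to 0.618 for CD36 and 0.117 to 0.233 for CD300LG. For CD146 they were -0.0799 to 0.208. Both shares of a cell hang on its depth, and most counts of the sparse tags were 0 or 1, so these values are given as a description.

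Between the ages there was 1 pool each, so no test was possible, and the intervals that follow cover counting error only. In endothelial cells, the 16-week level over the 1-week level was 0.43 on the log2 scale for Pecam1 (counting interval 0.35 to 0.52), 0.77 for Cd36 (0.66 to 0.88) and 0.76 for Cd300lg (0.61 to 0.92). For Mcam it was -1.05 (-1.35 to -0.75). None of the 4 genes was at least 2-fold higher at 16 weeks, where 4.70% of the 9271 genes with a mean of at least 10 CPM over the ages were, and Mcam was the 1 gene at least 2-fold lower, where 6.11% were. That value lay at the limit and was -0.81 without 1-week replicate 2. The median over all those genes was -0.08. In both 16-week wells the levels of Pecam1, Cd36 and Cd300lg were above both 1-week wells, and those of Mcam below. Endothelial cells of the ages lay almost wholly in separate clusters, so these ratios compare cells of different make-up; the 1-week cells included 39 of an unnamed cluster with 75.4 CPM of Cd300lg and 18 cycling cells.

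Mcam differed between ages in separate directions by class. Its log2 ratio of 16 weeks over 1 week was -1.25 in fibroblasts (-1.64 to -0.85), 0.33 in mural cells (0.14 to 0.53) and 0.87 in epithelial cells (0.63 to 1.10). All 380 fibroblasts of 1 week were in 1 cluster and all but 1 of the 1772 of 16 weeks in the other 3, so ratios in fibroblasts compare different clusters. In epithelial cells, summed mural markers were also higher at 16 weeks, at 1155 and 1240 CPM against 373 and 438 CPM, as were endothelial markers, at 83.6 and 102 CPM against 48.9 and 53 CPM, and the cells of the ages lay largely in different clusters. The part of these in the epithelial difference was not tested. The mural wells of the ages overlapped, at 265 and 336 CPM against 476 and 328.

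The tags of 3 of the 4 genes did not move with the RNA. CD31 in endothelial cells was lower at 16 weeks by a difference of -1.12 on the scaled log2 scale, with wells at 9.6 and 9.68 against 8.81 and 8.24, while Pecam1 RNA was higher. The share of endothelial cells with at least 20 CD31 counts was 90.4% and 90.6% at 1 week and 72.4% and 55.6% at 16 weeks. CD36 was lower by -1.04, with wells at 2.21 and 2.37 against 1.19 and 1.31, while Cd36 RNA was higher. CD300LG was higher by 0.67, with wells at 1.09 and 1.19 against 1.89 and 1.74, as was its RNA. CD146 differed by 0.01, with wells at 0.60 and 0.85 against 0.79 and 0.69, while Mcam RNA was lower. The SDs of the wells of each pool combined to 0.18. The sizes depended on the scale: CD31 was -1.55 on raw counts, CD36 -0.48 on raw counts and -0.32 on the centred log ratio, and CD300LG 0.26 and 0.42 on those scales. The median tag total of endothelial cells was lower at 16 weeks (326 and 252 counts) than at 1 week (431 and 394). Like the RNA ratios, these tag differences compare cells of different clusters. The parts of tag depth and of make-up in them were not tested.

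Endothelial cells were clustered within each age, again without the 4 genes, to see where in the vessel bed each was high. Clusters are called capillary-like, venous-like or arterial-like from other markers, hold 18 to 67 cells, and are described without a test. Pecam1 ranged between 826 and 1808 CPM, and Mcam between 53.5 and 187 CPM. Cd36 had a wider range: it was 1990 CPM (counting interval 1870 to 2117) in the 16-week capillary-like cluster led by Lpl, Kcna5 and Aqp7 and 462 CPM (393 to 541) in the venous-like cluster led by B4galt5, Tgfbi and Ltbp2. The capillary-like cluster led by Mctp1, Rsad2 and Il6 held 1346 CPM, the arterial-like cluster (Gja5, Col8a1) 941 CPM and the venous-like cluster with Sele and Selp 705 CPM. An unnamed cluster led by Col13a1 and Esm1, whose score on the capillary markers was above those of both capillary-like clusters, held 769 CPM, below the arterial-like cluster.

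Cd300lg had a partly different order. At 16 weeks it was 816 CPM in an unnamed cluster of 24 cells led by Col13a1 and Esm1, 726 CPM in the first capillary-like cluster, 493, 467 and 421 CPM in the venous-like cluster with Sele, the other capillary-like cluster and the other venous-like cluster, and 249 CPM in the arterial-like cluster. At 1 week it was 575 CPM in the capillary-like, 363 CPM in the venous-like, 122 CPM in the arterial-like and 75.4 CPM in an unnamed cluster led by Igfbp5 and Meg3. The arterial-like cluster was thus the lowest of the named clusters at both ages. Cd36 at 1 week was highest in the capillary-like cluster as well, at 1031 CPM against 373 to 725 CPM elsewhere. That 1-week cluster of 25 cells was deeper, with a median of 16086 UMIs against 4604 to 9735 in the other 1-week clusters. It was led by Ces2e (7.53-fold) and Car2 (7.38-fold). Names rest on the share of cells with a UMI of each marker, and the part of depth in this name was not tested.

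The tags of CD300LG and CD36 were high in the capillary-like clusters of the older pool. In the larger capillary-like cluster of 67 cells, CD300LG was 2.48 counts per cell, with 4.0 and 1.96 in the 2 wells, and in the smaller one it was 2.42, with 3.00 and 2.00. All other 16-week clusters held 0.333 to 0.872 counts, the lowest being the unnamed cluster in which the RNA was 816 CPM. That cluster scored 0.919 on the capillary marker list, above the 0.889 and 0.826 of the capillary-like clusters, and was left unnamed because Esm1, a leading gene, is of the angiogenic list. Per 1000 tag counts of the cells, the 2 capillary-like clusters held 4.41 and 2.71 CD300LG counts and the other clusters 0.658 to 1.14. At 1 week, CD300LG was 1.03 counts per cell in the venous-like, 0.949 in the unnamed, 0.6 in the capillary-like, 0.389 in the cycling and 0.16 in the arterial-like cluster. The order depended on the scaling, since per 1000 tag counts the values were 1.45 in the capillary-like, 1.39 in the venous-like, 0.913 in the unnamed, 0.645 in the cycling and 0.195 in the arterial-like cluster. CD36 at 16 weeks was 1.73 and 2.79 counts per cell in the capillary-like clusters and 0.159 to 0.708 in the rest, and the wells of the larger one differed, at 3.94 and 0.98. The median was 0 in both capillary-like clusters, and in 16-week replicate 1 a single endothelial cell held 41 of the 141 CD36 counts. Per 1000 tag counts, CD36 was 3.08 and 3.12 in the capillary-like clusters and 2.39 in the unnamed cluster.

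The CD31 tag had another order among these clusters. It was 39.7 and 84.8 counts per cell in the capillary-like clusters, 68.3 in the venous-like cluster with Sele, 171 in the venous-like cluster led by B4galt5, 199 in the arterial-like cluster and 18.0 in the unnamed cluster, where Pecam1 RNA was 1237 CPM. The arterial-like mean rested on few bright cells, since its median was 13.0 counts. At 1 week, the mean was lowest in the capillary-like cluster (102 counts) and highest in the arterial-like cluster (367 counts), whereas the median was lowest in the unnamed cluster (68.0 counts) and highest in the venous-like one (243 counts, against 228 in the arterial-like cluster). Per 1000 tag counts, CD31 at 1 week was likewise lowest in the unnamed cluster (154), followed by the capillary-like (247), venous-like (384), cycling (400) and arterial-like (447) clusters. On that scale the 16-week values were 60.8 in the unnamed cluster, 70.8 and 94.8 in the capillary-like clusters and 173 to 225 in the others.

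**Figure D4:**
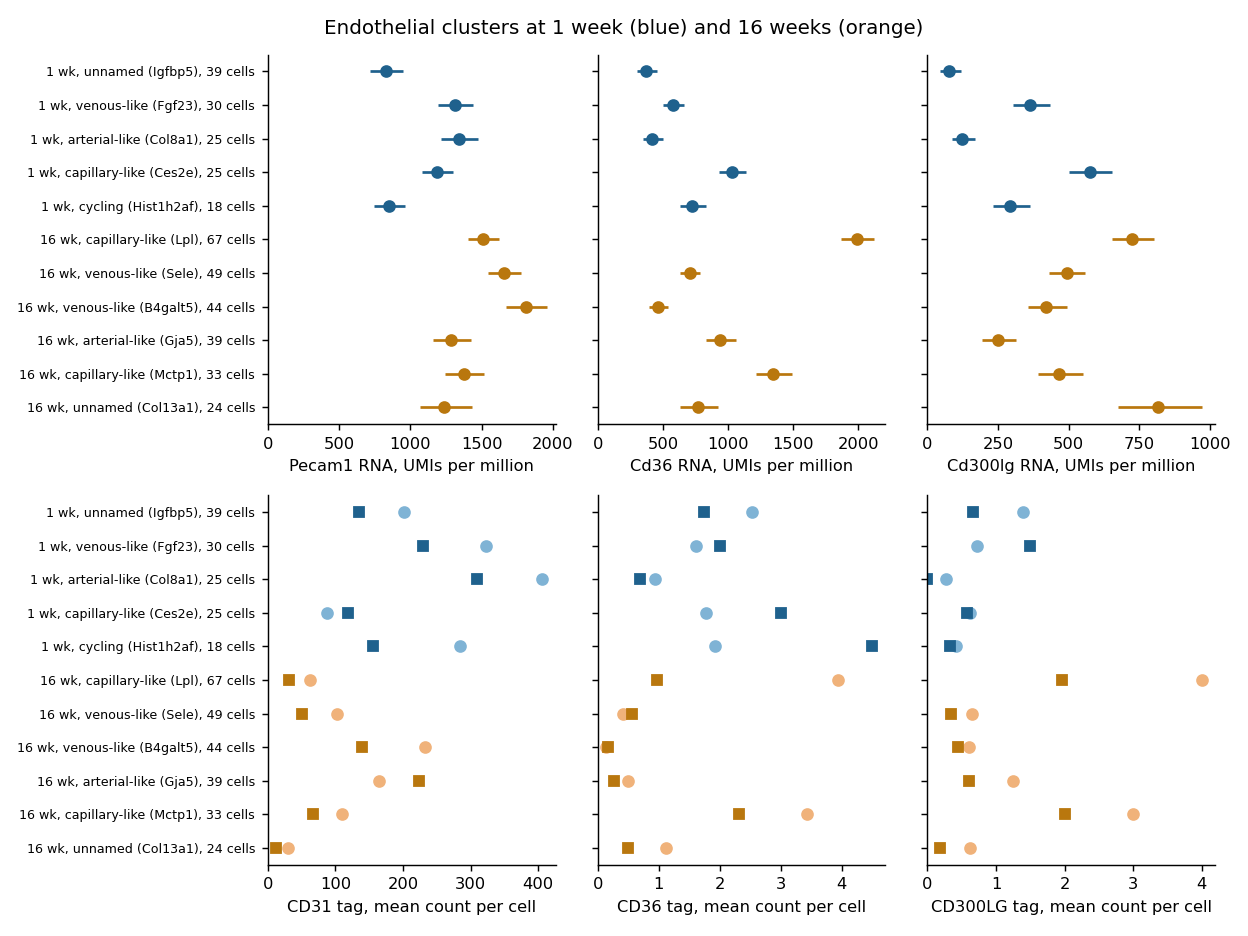
Upper row, RNA of Pecam1, Cd36 and Cd300lg (horizontal axes, CPM) in 5 endothelial clusters of 1 week (blue) and 6 of 16 weeks (orange), named with their leading gene and cell number, with bars for the exact counting interval. Lower row, mean count per cell of the matching tag in each well (circles, replicate 1; squares, replicate 2), in which CD36 and CD300LG at 16 weeks were high in the capillary-like clusters and CD31 in the B4galt5 and Gja5 clusters.

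Cd300lg in fibroblasts had the largest ratio between the ages of the 4 genes in the 4 classes. Its log2 ratio of 16 weeks over 1 week was 2.98 (2.61 to 3.37), and it was 1 of the 4.64% of 9264 genes that were at least 2-fold higher there. Here too the ages lay in separate fibroblast clusters. A UMI was seen in 33.4% and 33.3% of 16-week fibroblasts and in 9.18% and 10.9% at 1 week, although 1-week fibroblasts were deeper. After thinning every cell to 2000 UMIs these shares were 10.5% and 11.1% against 1.02% and 1.85%, and epithelial cells of 16 weeks were at 1.17% and 1.40%. In epithelial cells the log2 ratio was 1.57 (1.19 to 1.96), at 1.86 and 5.49 CPM. Summed endothelial markers in epithelial cells were also higher at 16 weeks, at 83.6 and 102 CPM against 48.9 and 53.0 CPM. Their part in this ratio was not tested.

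The 16-week fibroblasts with the gene were mainly in 1 cluster, led by Cxcl14 and Fcgr2b. In its 1136 cells Cd300lg was 83.6 CPM (79.0 to 88.4), with 81.2 and 84.7 CPM in the wells, and 48.5% of cells held a UMI. In the 332 cells led by Pcolce2 and Edn1, which had 2386 CPM of Pi16, a gene of adventitial fibroblasts, it was 6.08 CPM (3.85 to 9.12). Another cluster of 303 shallow cells held 25.3 CPM. The 12 endothelial markers summed to 426 CPM in the first cluster and 193 CPM in the second, all 12 being detected in both, and their part in the Cd300lg level was not tested. Of the 12, 6 were higher in the first cluster, among them Eng (229 against 84.8 CPM) and Plvap (144 against 33.8 CPM), both named after their values were seen. The other 6 were lower there, among them Cdh5, which encodes VE-cadherin (2.7 against 2.91 CPM), and Kdr (1.55 against 30.1 CPM), and Pecam1 was 6.94 against 11.6 CPM. Fibroblasts with a Cd300lg UMI at 16 weeks had 2.05 CD31 tag counts per cell against 1.09 in those without one, but 1 cell held 616 of the 1214 counts. Without the highest cell of each group, a step chosen after seeing the data, the means were 1.01 and 0.923. The CD300LG tag did not follow Cd300lg RNA, at 0.380 counts per cell in the first cluster and 0.361 in the second. Among 16-week fibroblasts, the 591 cells with a Cd300lg UMI carried 0.321 tag counts and the 1181 cells without one 0.368. At 1 week the order was the other: the 18 and 20 fibroblasts with a UMI carried 1.67 and 0.45 counts in the wells, and those without one 0.185 and 0.189.

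**Figure D5:**
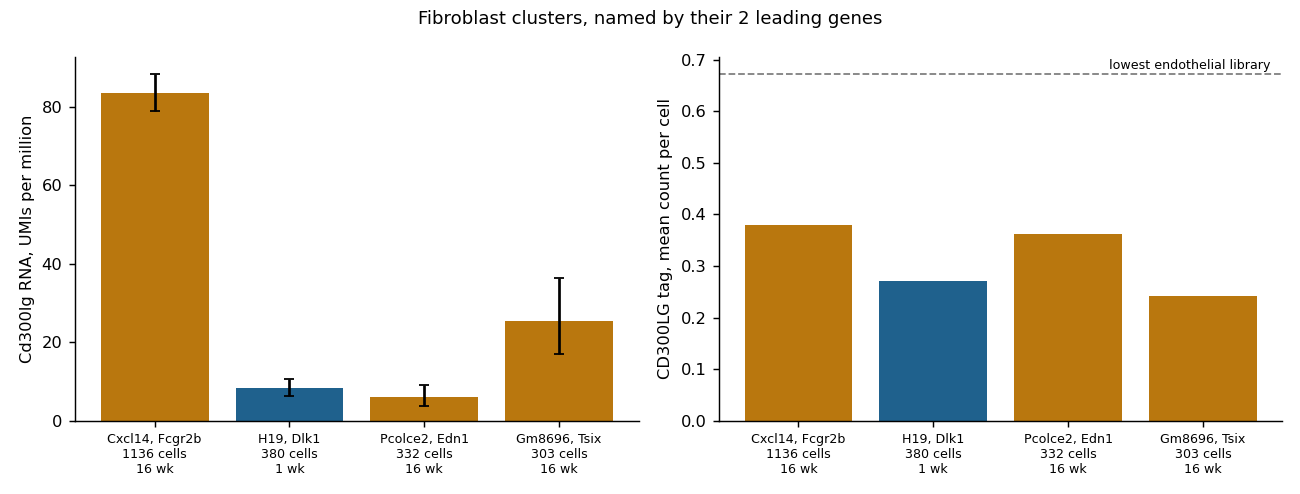
Cd300lg RNA (left, CPM; bars from 0 with the exact counting interval) and CD300LG tag (right, mean count per cell) in 4 fibroblast clusters, labelled with 2 leading genes, cell number and age (orange, 16 weeks; blue, 1 week). RNA was 83.6 CPM in the Cxcl14 cluster and 6.08 to 25.3 CPM in the others, whereas the tag was 0.241 to 0.380 counts in all 4, below the lowest endothelial library (dashed line, 0.672 counts).

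Mcam outside vessels was low but not uniform. Among 11 epithelial clusters, 2 of 16 weeks stood above the rest: 24.4 CPM in an unnamed cluster of 1225 cells and 26.6 CPM in a cluster of 280 intertypical epithelial-like cells, against 1.29 to 10.4 CPM in the others. The best list of the unnamed cluster was the intertypical one, at a score of 0.676, under the 0.7 needed for a name. The 280-cell cluster was led by Chil3, Ccl11, Gpx3 and Acta2, an actin of smooth muscle. The part of mural RNA in its Mcam level was not tested. Of the other clusters named intertypical, that of 939 cells held 3.42 CPM. That of 45 cells, led by Bpifa1, Ltf and Gm94, held 1.29 CPM. Its name came from its score of 0.818 on that list and is uncertain. The wells of the 2 higher clusters were at 23.0 and 25.3 CPM and at 25.7 and 27 CPM. Their CD146 tag, 0.324 and 0.193 counts per cell, lay within the 0.133 to 0.660 of the other clusters. The mural clusters held 299 CPM (260 cells, mostly of 1 week) and 393 CPM (79 cells, mostly of 16 weeks) of Mcam and 0.204 and 0.203 counts of CD146.

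The genes whose levels were most like those of each gene were found by Pearson correlation of log2(CPM + 1) over the 16 combinations of class and library, which share libraries and are mostly set apart by class. For Pecam1 they were Cdh5 (0.990), Ushbp1 (0.987), Afap1l1 (0.982), Gimap1 (0.981) and Stab1 (0.979), a scavenger receptor. For Cd36 they were Cldn5 (0.989), a tight-junction claudin, Gimap6 (0.986), Afap1l1 (0.986), Egfl7 (0.983) and Ctla2b (0.983). For Mcam they included Stom (0.972), Gm10687 (0.970), the transcription factor Mef2c (0.966) and Amigo2 (0.955). For Cd300lg they were the lectin Clec1a (0.973), the angiopoietin receptor Tek (0.968), the diaphragm protein Plvap (0.965), the water channel Aqp1 (0.960) and Vamp5 (0.957). Plvap and Aqp1 were also higher in the fibroblasts of 16 weeks, at 120 and 101 CPM, than in those of 1 week, at 43.2 and 18.6 CPM, where endothelial cells held 811 to 1897 CPM of them.

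Genes that work with CD36 in fatty acid handling were partly endothelial. Of 22 tested, 11 were higher in endothelial cells than in fibroblasts and 3 lower, against 7.05% and 8.91% of all genes, with a median log2 difference of 0.87 beside -0.04 over all genes. Gpihbp1, which holds lipoprotein lipase at the capillary wall, differed by 7.32 ± 0.46 and Fabp4, a fatty acid carrier, by 6.43 ± 0.35, at 8298 CPM in endothelial cells at 1 week and 9742 CPM at 16 weeks. Lower were the thrombospondin Thbs2 (-3.99 ± 0.46) and Lpl itself (-3.24 ± 0.63), which was 661 and 789 CPM in fibroblasts of the ages against 24.5 and 156 CPM in endothelial cells. Between the ages in endothelial cells, Lpl, Scarb1 and Thbs1 were at least 2-fold higher at 16 weeks and Fabp5 and Angptl4 at least 2-fold lower, of 19 list genes with at least 10 CPM on the mean, beside 4.70% higher and 6.11% lower of all genes. Fabp5 was also lower in the other classes, at 2380 against 379 CPM in mural cells, 1642 against 297 in fibroblasts and 10969 against 2351 in epithelial cells. Angptl4 was lower in mural cells and fibroblasts and higher in epithelial cells. Epithelial markers in endothelial cells summed to 2474 and 2301 CPM at 1 week and 1133 and 1206 at 16 weeks, and their part was not tested.

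The ligands and partners of CD146 were spread over the classes. Of 9 tested, 2 were higher and 2 lower in endothelial cells than in fibroblasts, beside 7.05% and 8.91% of all genes, with a median of -1.06 beside -0.04 over all genes. Pdgfb, the growth factor that recruits pericytes, differed by 6.47 ± 0.70 and the laminin chain Lama5 by 3.91 ± 0.29, whereas Wnt5a (-4.04 ± 0.70) and the galectin Lgals1 (-3.79 ± 0.22) were lower. In mural cells Lama5 stood at 88.7 and 108 CPM, Ntn1 at 4.65 and 29.8 CPM and Lgals3 at 13.2 and 203 CPM at the ages, the highest of the 4 classes on the mean. Of these, Lama5 differed between mural cells and fibroblasts in the test (4.24 ± 0.29, adjusted p = 0.000351), and Ntn1 (-0.21 ± 0.64, adjusted p = 0.924) and Lgals3 (2.34 ± 0.64, adjusted p = 0.0664) did not pass. Mean levels were also highest in mural cells, with no call against fibroblasts, for the fatty acid transporter Slc27a4 (13.6 and 17.4 CPM), the phosphatase Ptpn11 (71.7 and 83.3 CPM) and Cd300a (3.87 and 0 CPM) of the other lists.

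Among 16 junction and transmigration genes, 9 were higher in endothelial cells than in fibroblasts and 0 lower, with a median of 1.54; of all genes 7.05% were higher and 8.91% lower, with a median of -0.04, and this holds beside each list of this paragraph. Icam2, an integrin ligand, differed by 5.81 ± 0.28 and Cd38, an ectoenzyme that binds PECAM1, by 4.51 ± 0.57. Of 13 tested genes of progenitor homing and L-selectin ligands, 6 were higher and 0 lower, with a median of 1.80. Podxl, a sialomucin, differed by 6.80 ± 0.39 and Selp, which encodes P-selectin, by 6.53 ± 0.26. Selp and the chemokine receptor Ackr1 were at least 2-fold higher in endothelial cells at 16 weeks, at 311 against 143 CPM and 247 against 32.1 CPM, 2 of 12 list genes with at least 10 CPM on the mean beside 4.70% of all genes. Of the 8 relatives of the 4 genes, 3 passed the filter on low counts and 1 of these was higher: Bcam, a laminin receptor like MCAM, differed by 3.88 ± 0.24. Its mean level was highest in mural cells, at 269 and 551 CPM against 194 and 321 CPM in endothelial cells, but the difference between these classes did not pass (-0.67 ± 0.22, adjusted p = 0.0894).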

How the data were processed

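Single cells were measured with 4 RNA and 4 matched antibody tag (CITE-seq) libraries. The authors deposited counts of UMIs per gene and cell from STARsolo 2.7.9a on mm10, kept cells of at least 2000 UMIs, and deposited counts of 27 antibody tags per cell; the labels and the methods name different versions of the kit. No column was without a sample.

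Cells were clustered with scanpy 1.11.5 (Python 3.11.15; 2000 variable genes, 30 components, 10 neighbours). Predicted doublets (2.54%, at 0.8% per 1000 cells; the automatic threshold marked 12 cells) were left out. Classes were named from markers, with the 4 genes and the tested lists left out. Subclusters were named "-like" from at least 3 markers, a score of at least 0.7 and leading genes that did not favour another list; the score rule was set after values were seen. UMIs were summed per pool and class and tested with edgeR 4.0.16 (R 4.3.3; TMM, filterByExpr, quasi-likelihood, 3 residual degrees of freedom, pool as block, Benjamini-Hochberg). Classes are paired by construction, since each library held all 4. Tags were scaled to the cell's total (mean 4134), log2(count + 1), averaged per library and tested by exact sign flips. Ages were compared as CPM ratios with exact 95% intervals; intervals and limits of 3 counts cover counting error only. The edgeR step was tested on simulated data.

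The 4 genes, the gene lists and the tests were chosen with earlier results of these data known. Named were the 4 genes, the 5 most similar genes of each (1 is not reported here), up to 2 genes of largest increase and decrease per list against fibroblasts and list genes highest in mural cells (those highest in endothelial cells are covered by counts), and leading genes of clusters from the top 5. The cell classes rebuilt here may differ from the authors' own. Alternatives were DESeq2 1.42.0, other normalisations, filters, blocks, clusterings, tag scales and leaving out each well.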

Additional observations from a re-analysis of the deposited data

Results flagged for a closer look

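Some differences between ages had opposite directions in 2 cell classes in both wells. Each age was 1 pool, and none of these differences was tested. Changes here are differences between the means of the wells' log2 values, unlike the pooled ratios given above. For the CD36 tag, the change from 1 to 16 weeks in endothelial cells was -1.16 on the log2 scale relative to that in mural cells and -1.08 relative to that in epithelial cells. For Mcam RNA, the change was -1.84 in endothelial cells and -2.02 in fibroblasts relative to epithelial cells, in which the 16-week wells were higher. For the CD300LG tag, the change in endothelial cells was 0.92 relative to mural cells, and in mural cells -0.28 relative to epithelial cells. No library stood apart from the other 3 in the 16 sets of scaled tag differences between classes, examined with Dixon's 95% critical value. RNA levels were not examined in this way, and the libraries of a set were wells of 2 pools of different age.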

How the results depend on the processing

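Over 16 RNA contrasts and 208 alternative values, 196 kept direction and side of the threshold and 12 came to pass it, all for Mcam in endothelial against mural cells or Cd300lg in mural cells against fibroblasts. Mcam passed with DESeq2 (-1.65), no filter (-1.68), sums per library with (-1.63) or without (-1.62) the replicate block, doublets kept (-1.76), and without 1-week replicate 1 (-1.62) or 16-week replicate 2 (-1.73), in a range of -1.73 to -1.50 with each well left out. Cd300lg passed with DESeq2 (-2.18), no filter (-2.29), the replicate block (-2.22), no block (-2.88) and without 1-week replicate 1 (-2.81), in a range of -2.81 to -1.99. Genes called with the replicate block numbered 6159, 4615, 3799 and 3256 against 3647, 2542, 1966 and 1313 for endothelial against epithelial, fibroblast and mural cells and mural cells against fibroblasts; without a block, 3286 and 2544 for the latter pair, and with no filter 2269 for the last. Sums per library count wells as samples. Of 176 tag values between classes, 7 changed direction: CD146 in endothelial cells against fibroblasts (centred log ratio, -0.09), and, in mural cells against fibroblasts, CD31 (total without MHCII, UEA1 and EpCAM1, -0.03), CD36 (centred log ratio, -0.16; that total, -0.04) and CD146 (raw counts, 0.03; all variable genes, 0.01; with wells left out, -0.09 to 0.03). Between ages, Pecam1 RNA was 0.49 with TMM, 0.57 with doublets kept, 0.42 with all variable genes and 0.47 with cells under 3000 UMIs left out. CD31 was -1.55 on raw counts. CD36 was -0.48 on raw counts, -0.32 on the centred log ratio and -0.74 on the total without those 3 tags, and CD300LG 0.26, 0.42 and 0.52. CD146 became -0.01 on raw counts and -0.03 with all variable genes, and -0.11 to 0.13 with wells left out. The causes were not tested. No paired analysis was possible between ages because each age was 1 pool and well numbers join nothing across pools. Means of 0.107 to 2.12 counts per cell limit the CD36, CD146 and CD300LG tags.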
